A study of Arabidopsis thaliana with 72 samples.

Results

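The response of phr1 phl1 seedlings of Arabidopsis thaliana to methyl jasmonate (MeJA) at high phosphate was measured by RNA-seq of poly(A) RNA from whole seedlings. The libraries were chosen by their titles. They were the 6 libraries of MeJA-treated phr1 phl1 seedlings at high phosphate and 5 of the 6 untreated libraries of the same genotype and medium, 11 of the 72 libraries of the series. Seedlings germinated for 7 days on medium with 1 mM phosphate (Pi) and were then moved for 12 days to fresh medium with 1 mM Pi that held 10 µM MeJA or no addition. Both groups thus carried the phr1 and phl1 mutations, and both grew with ample Pi, 1% sucrose and 9 h of light a day. The labels do not name the mutant alleles or say how many seedlings went into a library. Each group came from 2 independent experiments, called A and B. Experiment A gave 3 MeJA and 3 untreated libraries, and experiment B gave 3 MeJA and 2 untreated libraries. A library is called by its experiment and replicate, and the untreated values below stand in the order A1, A2, A3, B2, B3. The series also holds wild-type Col-0, medium with 5 µM Pi (low Pi) and the bacterial peptide flg22.

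PHR1 and its close relative PHL1 are MYB transcription factors that switch on the genes of the phosphate starvation response. Jasmonate acts through a repressor that is removed: the bioactive conjugate of jasmonate with isoleucine joins the F-box protein COI1 to JAZ proteins, the JAZ proteins are degraded, and the transcription factors they held back, MYC2 and its relatives among them, act on their targets. JAZ genes and jasmonate synthesis genes are themselves MYC targets, so the pathway feeds back on itself in both directions. MYC factors drive the wound branch with the storage proteins VSP1 and VSP2, and together with ethylene the ERF factors ORA59 and ERF1 drive the defensin branch with PDF1.2. In seedlings jasmonate is also known to raise glucosinolates, anthocyanins and trichomes and to slow growth.

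The start sites of 8 of the genes described below are shown as examples of windows that hold a motif. They were picked for that, and the members with a motif are counted list by list further on. MYC factors are known to bind G-boxes (CACGTG) and the related T/G-box (AACGTG), and ERF factors the GCC-box (GCCGCC). Each line gives the 250 bases before the annotated start of the gene, read 5′ to 3′ on the gene's own strand from the TAIR10.1 assembly. Capitals mark a match to these 3 motifs, and a T/G-box on the opposite strand reads CACGTT.
JAZ2 (chr1:28150447-28150696, minus strand): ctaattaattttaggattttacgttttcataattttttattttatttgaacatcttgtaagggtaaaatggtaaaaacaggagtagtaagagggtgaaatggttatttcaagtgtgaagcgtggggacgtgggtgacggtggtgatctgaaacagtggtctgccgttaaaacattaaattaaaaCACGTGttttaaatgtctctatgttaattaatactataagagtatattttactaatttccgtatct
JAZ3 (chr3:6119457-6119706, plus strand): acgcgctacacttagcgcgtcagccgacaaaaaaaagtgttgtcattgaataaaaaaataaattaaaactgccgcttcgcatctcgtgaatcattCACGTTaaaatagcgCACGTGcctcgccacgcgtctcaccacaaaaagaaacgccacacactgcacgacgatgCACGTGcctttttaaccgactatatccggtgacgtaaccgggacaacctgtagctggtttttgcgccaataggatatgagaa
JAZ6 (chr1:27276563-27276812, minus strand): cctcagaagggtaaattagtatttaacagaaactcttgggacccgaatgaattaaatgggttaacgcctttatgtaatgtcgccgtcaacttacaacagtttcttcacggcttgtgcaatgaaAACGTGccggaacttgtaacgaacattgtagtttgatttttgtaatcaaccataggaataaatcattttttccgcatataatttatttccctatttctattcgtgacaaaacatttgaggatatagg
MYC2 (chr1:11801408-11801657, minus strand): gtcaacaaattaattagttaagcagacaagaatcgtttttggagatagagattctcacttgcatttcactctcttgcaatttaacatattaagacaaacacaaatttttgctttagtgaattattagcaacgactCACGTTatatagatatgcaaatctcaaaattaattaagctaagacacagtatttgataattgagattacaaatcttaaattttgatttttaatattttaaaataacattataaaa
AOS (chr5:17099596-17099845, minus strand): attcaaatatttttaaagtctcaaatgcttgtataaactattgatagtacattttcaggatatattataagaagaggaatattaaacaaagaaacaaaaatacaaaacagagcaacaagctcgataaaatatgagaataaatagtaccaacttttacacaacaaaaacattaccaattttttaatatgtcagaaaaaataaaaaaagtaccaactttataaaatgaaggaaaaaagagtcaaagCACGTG
JRG21 (chr3:20769411-20769660, minus strand): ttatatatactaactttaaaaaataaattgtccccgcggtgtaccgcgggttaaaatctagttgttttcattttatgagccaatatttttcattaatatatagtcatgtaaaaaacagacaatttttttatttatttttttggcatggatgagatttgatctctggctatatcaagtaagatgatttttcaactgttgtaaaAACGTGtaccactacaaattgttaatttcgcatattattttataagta
VSP1 (chr5:8509202-8509451, minus strand): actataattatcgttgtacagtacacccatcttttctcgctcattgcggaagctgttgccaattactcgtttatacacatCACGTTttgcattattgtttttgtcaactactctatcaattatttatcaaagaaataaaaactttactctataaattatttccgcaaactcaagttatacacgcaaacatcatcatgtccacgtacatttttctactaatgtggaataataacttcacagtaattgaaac
PDF1.2 (chr5:17907639-17907888, minus strand): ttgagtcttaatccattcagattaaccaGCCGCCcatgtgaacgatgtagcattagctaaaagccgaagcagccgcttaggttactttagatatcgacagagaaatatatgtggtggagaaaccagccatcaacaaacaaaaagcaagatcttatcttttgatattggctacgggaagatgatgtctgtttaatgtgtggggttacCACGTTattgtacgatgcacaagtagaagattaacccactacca
JAZ3 holds 2 G-boxes, which begin 140 and 82 bases before the gene, and the G-box of AOS begins 6 bases before it. PDF1.2 holds a GCC-box that begins 222 bases before the gene and a T/G-box at 44 bases. The T/G-boxes of MYC2, JRG21 and VSP1 begin at 115, 48 and 170 bases.

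The state of the targeted genes was examined first. PHR1 (AT4G28610) had 12.9 to 36.3 CPM (median 20.1) in the MeJA libraries, against 19.2, 19.3, 21, 38.9 and 44.4 CPM in the untreated libraries. The untreated Col-0 libraries at high Pi lay higher, at 49.0 to 74.0 CPM (read counts scaled to the size of their library). PHL1 (AT5G29000) had 30.9 to 102 CPM (median 50.5) in the MeJA libraries and 52.2, 46.3, 45, 81.5 and 78.1 CPM in the untreated libraries, above the 9.80 to 15.9 CPM of untreated Col-0 at high Pi. Reads that fall outside the disrupted part of a gene are still counted, so these levels do not measure the protein. Neither gene passed the test of MeJA against untreated (log2 change -0.37 ± 0.16 for PHR1 and -0.14 ± 0.17 for PHL1, edgeR adjusted p = 0.115 and 0.646). PHR1 was called lower with MeJA when MeJA B3 was left out (-0.50), in experiment B alone (-0.54) and with an experiment effect in every group (-0.43). So it was with only the 2 groups compared in the model (-0.43) and with a sixth untreated library kept (-0.62). That library held 68.6 CPM of PHR1, above the 44.4 CPM of the highest other untreated library, so keeping it raises the untreated mean.

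The sixth library labelled untreated phr1 phl1 at high Pi, replicate 1 of experiment B, goes against its label and was left out. It is called the doubted library below. It held 68.6 CPM of PHR1 and 20.3 CPM of PHL1. It also held 211 CPM of VSP2, 818 CPM of PDF1.2, 97.0 CPM of JAZ10 and 194 CPM of MRN1. The highest values among the other 47 libraries without MeJA were 8.51, 29.2, 5.51 and 1.70 CPM for these 4 genes. With it kept, 1560 genes rose and 1150 fell. Its jasmonate output RNA is among the grounds for the doubt, so separate groups for such genes rest in part on leaving it out.

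Of 18693 genes tested, 1854 rose with MeJA (9.92%) and 1554 fell (8.31%) at an edgeR adjusted p under 0.05, and the median change of all genes was -0.02 on the log2 scale. The response was lopsided in size. A fitted change of more than 1 on the log2 scale was seen in 846 of the risen and 380 of the fallen genes, and one of more than 3 in 202 and 11. Past 5 lay 81 risen genes and 0 fallen ones. The risen genes together took 16.8 to 19.4% of all counts in the MeJA libraries, against 7.72 to 8.94% in the untreated libraries. They were picked on these same libraries, so a larger share with MeJA follows from the choice, and the shares only describe its size. The split of the calls depends on the scaling: with library totals alone 1445 genes rose and 2293 fell, and with upper-quartile scaling 1601 rose and 1960 fell. Library totals ran from 3714795 to 5964233 counts in the MeJA group and from 2588788 to 6616971 in the untreated group. In whole seedlings, fewer cells of a type and less RNA per cell cannot be told apart.

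**Figure D1:**
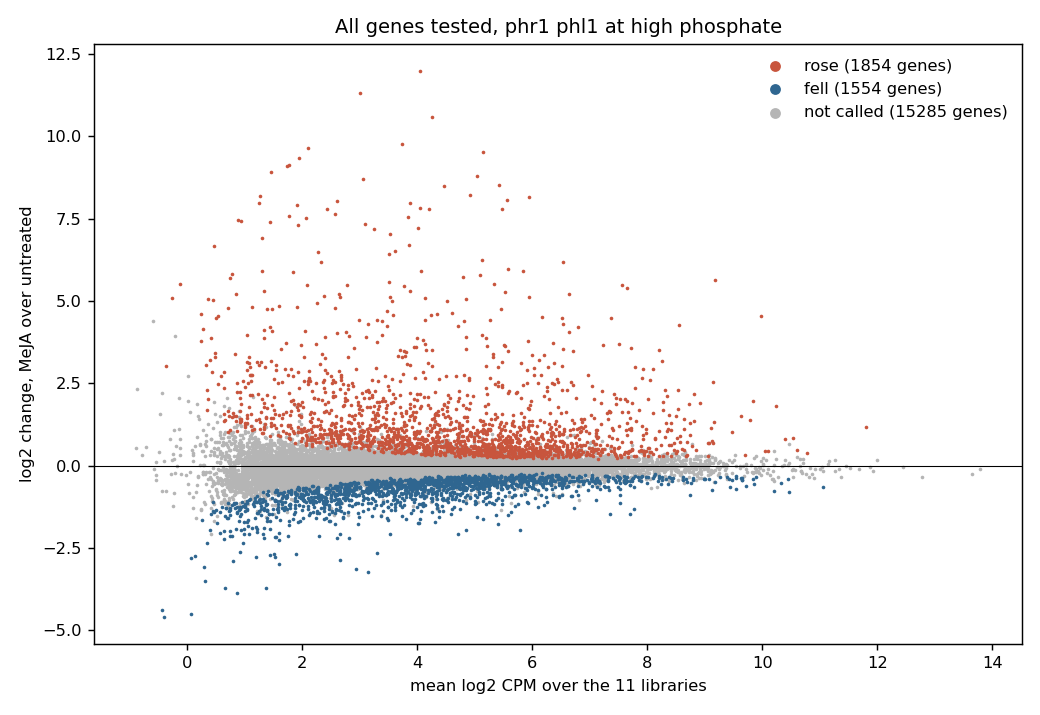
Each point is 1 of the 18693 genes tested, by its mean log2 CPM over the 11 libraries (x axis) and its log2 change, MeJA over untreated (y axis). Of the 3408 called genes, 81 that rose and 0 that fell lie past a log2 change of 5, with genes that had no count in a group at their fitted value.

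The JAZ repressors rose nearly as a family. Of the 11 members tested, 10 rose and 0 fell, where 9.92% and 8.31% of all genes did, with a median log2 change of 2.76 (2.63 in A alone and 3.06 in B alone), and their summed level was 1060 to 1330 CPM in the MeJA libraries, against 176 to 223 CPM in the untreated libraries. JAZ10 (AT5G13220), whose splice forms are known to resist degradation, had 95.4 to 112 CPM (median 102) in the MeJA libraries and 5.51, 5.26, 1.99, 3.67 and 3.42 CPM in the untreated libraries. The lowest MeJA library thus lay far above the highest of these untreated ones, and the log2 change was 4.64 ± 0.15 (adjusted p = 1e-36). The doubted library held 97.0 CPM, within the MeJA range, and with it kept the log2 change was 2.52. JAZ5 (AT1G17380) had 24 to 35.7 CPM (median 29.1) with MeJA and 2.66, 2.7, 0.662, 0.734 and 1.58 CPM without, a log2 change of 3.92 ± 0.28. JAZ1 (AT1G19180), one of the founding members of the family, had 177 to 204 CPM (median 195) with MeJA and 29.2, 30.3, 17.2, 15 and 12.6 CPM without, a log2 change of 3.21 ± 0.18. The groups did not overlap for either gene.

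JAZ2, JAZ6, JAZ9 and JAZ3 rose by 2.77 ± 0.12, 2.76 ± 0.18, 2.74 ± 0.24 and 2.26 ± 0.13 on the log2 scale, and the low-count JAZ7 by 3.16 ± 0.45 (adjusted p at most 6.1e-08). JAZ12 rose least among the members whose groups did not overlap, with 78 to 104 CPM in the MeJA libraries and 39.4 to 54.4 CPM in the untreated libraries (log2 change 1.02 ± 0.10, adjusted p = 4.5e-14). JAZ4 rose by 0.92 ± 0.29 (adjusted p = 0.0202) with overlapping groups. Its call was lost without MeJA B1, MeJA B2, untreated A2 or untreated B3, at log2 changes of 0.72 to 0.82 (adjusted p 0.0585 to 0.0978). JAZ11 had 9.29 to 13.2 CPM with MeJA and 8.1 to 14.7 CPM without (log2 change 0.15 ± 0.17, adjusted p = 0.627). JAZ8, a member that lacks the usual degradation motif, had too few counts to be tested (28 in the 6 MeJA libraries and 5 in the 5 untreated libraries). NINJA (AT4G28910), the adaptor that ties JAZ proteins to the corepressor TPL, rose by 0.75 ± 0.08 (adjusted p = 9.2e-12), while TPL had a log2 change of 0.03 ± 0.13 (adjusted p = 0.913).

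**Figure D2:**
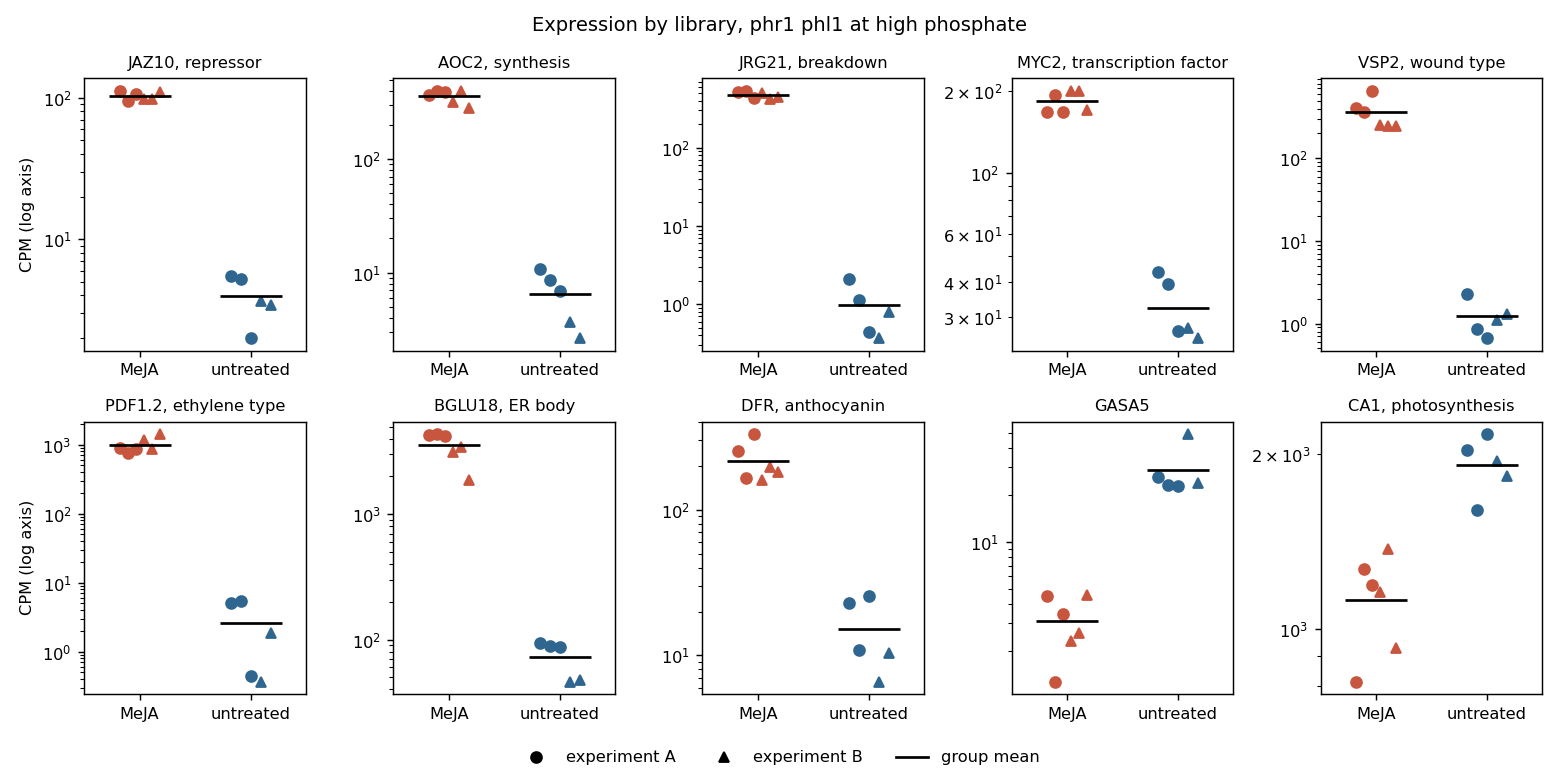
CPM on a log axis in each of the 6 MeJA (left) and 5 untreated (right) libraries for 10 genes, with circles for experiment A, triangles for experiment B and a line at the group mean. JAZ10 lies between 95.4 and 112 CPM with MeJA and at or under 5.51 CPM without, and CA1 is the reverse case, with at most 1370 CPM with MeJA and at least 1600 CPM without.

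Jasmonate synthesis genes rose with the repressors. Of 17 tested, 13 rose and 0 fell, where 9.92% and 8.31% of all genes did. Their median was 1.47 (1.56 in A and 2.04 in B). The first steps run in the plastid. LOX2 (AT3G45140), the lipoxygenase that starts the pathway in leaves, had 2290 to 5860 CPM (median 5010) in the MeJA libraries and 364, 335, 222, 71.6 and 84.4 CPM in the untreated libraries. AOS (AT5G42650), the allene oxide synthase of the next step, had 366 to 1040 CPM (median 675) with MeJA and 79.2, 66.1, 73.9, 37.8 and 34.7 CPM without. AOC2 (AT3G25770), a cyclase that follows it, had 280 to 401 CPM (median 380) with MeJA and 10.8, 8.67, 6.84, 3.67 and 2.63 CPM without. The log2 changes were 4.55 ± 0.40, 3.58 ± 0.28 and 5.90 ± 0.35 (adjusted p at most 1.5e-14), and no MeJA library overlapped an untreated one for these genes. The other cyclases AOC1, AOC3 and AOC4 rose by 4.76 ± 0.22, 1.88 ± 0.15 and 1.47 ± 0.11.

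The peroxisomal reductase OPR3 (AT2G06050) rose by 2.46 ± 0.13, the ligase OPCL1 by 2.20 ± 0.17 and the oxidase ACX1 by 1.09 ± 0.11 (adjusted p at most 2.3e-12). The lipoxygenases LOX4 and LOX6 rose by 2.17 ± 0.35 and 1.18 ± 0.13. LOX3 rose by 1.01 ± 0.30 (adjusted p = 0.013), and by 0.85 without untreated B3 (adjusted p = 0.0504). Its log2 change was 0.87 in A, 2.66 in B and 1.75 with an experiment effect in every group. JMT, which makes the methyl ester itself, rose by 1.07 ± 0.38 (adjusted p = 0.0368). Leaving out MeJA A2, A3, B1 or B2 or untreated A2, B2 or B3 ended that call, at 0.85 to 1.12 (adjusted p 0.0527 to 0.129). The later steps of chain shortening, KAT2 and AIM1, had log2 changes of 0.32 ± 0.13 and 0.23 ± 0.14 (adjusted p = 0.0834 and 0.279). JAR1 (AT2G46370), which joins jasmonate to isoleucine, had 56.2 to 79.6 CPM with MeJA and 46.8 to 80.3 CPM without (log2 change 0.10 ± 0.12, adjusted p = 0.663), and its sign differed between the experiments (-0.05 in A and 0.45 in B).

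Genes that break jasmonate down rose too: 8 of 9 tested rose and 0 fell, beside 9.92% and 8.31% of all genes. Their median was 3.52 (3.57 in A and 3.16 in B). JRG21 (AT3G55970, also called JOX3), an oxygenase that hydroxylates jasmonate, had 416 to 534 CPM (median 471) in the MeJA libraries and 2.09, 1.14, 0.441, 0.367 and 0.789 CPM in the untreated libraries. The groups lay far apart, with a log2 change of 8.79 ± 0.48 (adjusted p = 5.8e-24). Its relatives AT5G05600 and AT2G38240, also jasmonate oxygenases, rose by 4.51 ± 0.20 and 4.75 ± 0.58. AT2G38240 had 4.92 to 9.14 CPM (median 7.97) with MeJA and 0.57, 0.284, 0.221, 0 and 0 CPM without. Its log2 change was 4.31 in A, 7.85 in B, where no untreated count was found, and 6.11 with an experiment effect in every group. AT5G05600 had 270 to 348 CPM with MeJA and 7.89 to 20.8 CPM without. The amidohydrolases ILL6 (AT1G44350) and IAR3 (AT1G51760), which split the isoleucine conjugate, rose by 3.65 ± 0.21 and 2.11 ± 0.12. ST2A, a sulfotransferase of hydroxylated jasmonate, rose by 3.52 ± 0.30.

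The P450 enzymes that oxidise the isoleucine conjugate did not all move. CYP94B1 rose by 2.34 ± 0.28 and CYP94C1 by 2.05 ± 0.35 (adjusted p at most 4.3e-06). CYP94B3 (AT3G48520) had 2.39 to 4.3 CPM (median 3.04) with MeJA and 1.05 to 3.41 CPM (median 3.04) without, with a log2 change of 0.18 ± 0.33 (adjusted p = 0.781). Its value was -0.01 in A and 1.03 in B. AT3G11180, the remaining jasmonate oxygenase, had too few counts to be tested.

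Among the receptor and transcription factor genes, 7 of 15 tested rose and 0 fell (median 0.64), beside 9.92% and 8.31% of all genes. The receptor gene COI1 (AT2G39940) had 46 to 56.8 CPM (median 54.3) in the MeJA libraries and 54.7, 54.6, 44.6, 46.2 and 53.1 CPM in the untreated libraries. The groups overlapped almost completely (log2 change 0.06 ± 0.10, adjusted p = 0.74), and the sign turned to -0.02 with library totals alone. MYC2 (AT1G32640), the main activator of the wound branch, had 167 to 200 CPM (median 182) with MeJA and 43.5, 39.5, 26.5, 27.2 and 25 CPM without, and rose by 2.48 ± 0.15 (adjusted p = 1.9e-22). Of its partners, MYC3 (AT5G46760) rose by 0.64 ± 0.12 (adjusted p = 2.1e-05), and MYC4 (AT4G17880) had a log2 change of -0.13 ± 0.16 (adjusted p = 0.649), with -0.36 in A and 0.36 in B. JAM1 (AT2G46510), a bHLH repressor that competes with the MYC factors, rose by 1.37 ± 0.13 and its relative JAM3 by 0.32 ± 0.10 (adjusted p = 3.6e-14 and 0.0192), while JAM2 had 0.26 ± 0.12 (adjusted p = 0.121). The JAM3 call was lost without untreated A2 or A3 (0.29 to 0.30, adjusted p 0.0572 to 0.0626) and with library totals alone (0.24).

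ORA59 (AT1G06160), the ERF factor that drives defensin genes, had 6.36 to 22.3 CPM (median 12.6) in the MeJA libraries and 1.33, 1.14, 0.882, 1.1 and 0.789 CPM in the untreated libraries, a log2 change of 3.70 ± 0.48 (adjusted p = 6.6e-09). ANAC055 (AT3G15500), a NAC factor downstream of MYC2, rose by 2.91 ± 0.32. Its relatives ANAC019 and RD26 had log2 changes of 1.26 ± 0.69 and 0.54 ± 0.24 (adjusted p = 0.221 and 0.115), and RD26 was called without MeJA B1 (0.69) or B2 (0.68). ORA47, an ERF that activates synthesis genes, had a log2 change of 1.27 ± 0.50 (adjusted p = 0.0697) and was called without MeJA B1 (1.40) or B2 (1.43). ERF1 had too few counts to be tested, 66 in the MeJA libraries and 3 in the untreated libraries.

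Wound-type output genes rose strongly: 10 of 11 tested rose and 0 fell, beside 9.92% and 8.31% of all genes. Their median was 5.11 (5.07 in A and 4.96 in B). VSP2 (AT5G24770), a vegetative storage protein, had 243 to 656 CPM (median 308) in the MeJA libraries and 2.28, 0.853, 0.662, 1.1 and 1.31 CPM in the untreated libraries, a log2 change of 8.21 ± 0.42 (adjusted p = 1.5e-25). VSP1 (AT5G24780) had 150 to 393 CPM (median 172) with MeJA and 3.8, 2.7, 2.65, 8.44 and 2.89 CPM without, a log2 change of 5.78 ± 0.33. The coding sequences of VSP1 and VSP2 are alike, so reads could be split between them. THI2.1 (AT1G72260), an antimicrobial thionin, had 10 to 34.2 CPM (median 13.7) with MeJA and no count in any of the 5 untreated libraries, which makes it at least 134-fold higher (floor of 3 counts over the untreated group).

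Enzymes of the wound branch moved with the storage proteins. NATA1 (AT2G39030), which acetylates ornithine, had 124 to 380 CPM (median 226) with MeJA and 0.57, 3.41, 0, 0 and 0.263 CPM without (log2 change 7.80 ± 0.43). TAT3, a tyrosine aminotransferase, rose by 6.44 ± 0.55, and FAMT, a carboxyl methyltransferase, by 5.11 ± 0.38. CLH1 (AT1G19670), a chlorophyllase, had 551 to 832 CPM with MeJA and 21.8 to 38.2 CPM without (4.50 ± 0.25). CORI3, a cystine lyase, rose by 4.49 ± 0.40, the arginase ARGAH2 by 3.52 ± 0.25 and the trypsin inhibitor KTI1 by 3.13 ± 0.55 (adjusted p at most 1e-05). TPS04, a synthase of volatile terpenes, had a log2 change of 1.94 ± 0.77 at low counts (adjusted p = 0.0723) and was called without MeJA B1 (2.14) or B2 (2.12). Without untreated A2 NATA1 changed by 9.80, and without untreated A1 FAMT by 5.87.

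The defensin branch rose as well. Of 8 ethylene-jasmonate outputs tested, 7 rose and 0 fell, beside 9.92% and 8.31% of all genes. Their median was 5.53 (5.21 in A and 6.40 in B). PDF1.2 (AT5G44420) had 747 to 1430 CPM (median 878) in the MeJA libraries and 5.13, 5.4, 0.441, 0.367 and 1.84 CPM in the untreated libraries (log2 change 8.16 ± 0.58, adjusted p = 2.2e-18). PDF1.3 had 478 to 1010 CPM with MeJA and 0.662 to 4.12 CPM without (8.07 ± 0.65, and 8.76 without untreated A2). Defensin genes of this family are close copies, so the counts of single members are uncertain. The groups were separate for each of PDF1.2, PDF1.3, PDF1.2b and PDF1.2c, which does not settle the level of a single member. HEL (AT3G04720), a hevein-like protein, rose by 2.99 ± 0.34 and the osmotin OSM34 by 1.34 ± 0.35 (adjusted p at most 0.0034). The basic chitinase HCHIB had a log2 change of 0.37 ± 0.27 (adjusted p = 0.401), with 1.04 in A and -0.74 in B.

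The call of PDF1.4 rests on 1 library. This defensin had 0.245 to 25.8 CPM (median 2.37) with MeJA, with MeJA B3 highest, and 0.526 to 1.47 CPM (median 0.57) without. The log2 change was 2.91 ± 0.78 (adjusted p = 0.00477), and 1.70 without MeJA B3 (adjusted p = 0.111). In experiment A it was -0.38.

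Motif counts over all promoters were set beside these groups. The T/G-box was present in 16.5% of the windows of risen genes, in 22.7% of those that rose past a log2 change of 2, in 5.73% of fallen genes and in 7.63% of all genes tested. The G-box was present in 10.8%, 12.4%, 5.92% and 7.29% of the same sets, and the GCC-box in 2.37%, 2.11%, 1.35% and 1.93%. Of the 11 wound-type outputs 5 held a T/G-box, and of the 8 ethylene-jasmonate outputs 3 held a GCC-box, which 1.93% of all genes held. Of the wound-type outputs 0 held a G-box, and of the ethylene-jasmonate outputs 0 held a G-box and 1 a T/G-box. Among JAZ genes 3 of 11 held a G-box and 4 of 11 a T/G-box. Of 17 synthesis genes 2 held a G-box and 2 a T/G-box, and of 15 receptor and transcription factor genes also 2 and 2. Of 9 breakdown genes 0 held a G-box, and JRG21 was the 1 with a T/G-box. These are matches of 6 letters on either strand within 250 bases, in 18680 genes with a window, and not sites of binding.

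Genes of ER bodies, the spindle-shaped stores of β-glucosidase in the endoplasmic reticulum, and of jacalin lectins that go with them rose without exception among the 16 tested, with a median of 2.04 (1.98 in A and 2.23 in B). Their summed level was 14600 to 22500 CPM in the MeJA libraries and 3220 to 5410 CPM in the untreated libraries. Of all genes tested, 9.92% rose. BGLU18 (AT1G52400), the glucosidase of wound-induced ER bodies, had 1880 to 4360 CPM (median 3830) with MeJA and 93.6, 88, 86.9, 46.2 and 47.3 CPM without (log2 change 5.65 ± 0.31, adjusted p = 1.9e-24). TSA1 (AT1G52410), a protein that shapes these bodies, rose by 5.21 ± 0.25, and its relative NAI2 by 1.89 ± 0.13. The jacalin JAL23 had 144 to 426 CPM with MeJA and 0 to 1.56 CPM without (8.50 ± 0.43, and 9.15 without untreated A2). BGLU22 and JAL35 rose by 4.26 ± 0.20 and 2.95 ± 0.14. PYK10 (AT3G09260), the abundant glucosidase of constitutive root ER bodies, rose least (1.18 ± 0.14, adjusted p = 1e-10), and its regulator NAI1 rose by 1.42 ± 0.14.

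Glucosinolate synthesis rose broadly, by smaller steps. Of 26 aliphatic glucosinolate genes tested, which make the methionine-derived compounds, 23 rose and 0 fell (median 1.31, with 1.24 in A and 1.65 in B). Of all genes 9.92% rose and 8.31% fell. BCAT4 (AT3G19710), the aminotransferase that opens methionine chain elongation, had 279 to 542 CPM (median 503) with MeJA and 122, 111, 138, 62 and 46 CPM without (log2 change 2.35 ± 0.22, adjusted p = 5.7e-14). MAM3 (AT5G23020) and MAM1, the elongation synthases, rose by 2.18 ± 0.18 and 1.69 ± 0.19. The P450 enzymes CYP79F2 and CYP83A1 of the core pathway rose by 1.60 ± 0.21 and 1.3 ± 0.17, and the side-chain oxygenase FMOGS-OX2 by 2.24 ± 0.49. Of the regulators, MYB76 rose by 2.21 ± 0.34 (adjusted p = 2.9e-07), while MYB28 (AT5G61420) and MYB29 (AT5G07690) had 0.24 ± 0.19 and 0.27 ± 0.24 (adjusted p = 0.423 and 0.505).

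Of 20 genes of tryptophan and indole glucosinolate synthesis, 16 rose and 0 fell, beside 9.92% and 8.31% of all genes. Their median was 1.42 (1.42 in A and 1.54 in B). ASA1 (AT5G05730), the first enzyme of tryptophan synthesis, had 118 to 183 CPM (median 152) with MeJA and 39.3, 37.7, 41.9, 25.7 and 23.1 CPM without (log2 change 2.26 ± 0.17). CYP79B2 and CYP79B3, which turn tryptophan into the aldoxime, rose by 2.04 ± 0.19 and 1.90 ± 0.17. IGMT1 (AT1G21100), a methyltransferase of indole glucosinolates, had 56.1 to 89.7 CPM (median 61.3) with MeJA and 6.65, 2.13, 2.43, 2.57 and 2.89 CPM without (4.42 ± 0.38, adjusted p = 2.9e-15), and IGMT5, which methylates the indole nitrogen, rose by 2.24 ± 0.18. The regulators MYB34 (AT5G60890) and MYB51 had log2 changes of 0.42 ± 0.19 and 0.58 ± 0.27 (adjusted p = 0.116 and 0.143). For MYB34 the groups did not overlap, at 59.2 to 98.6 CPM with MeJA and 50.9 to 58.7 CPM without.

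Myrosinases, which cleave glucosinolates on damage, and the specifier proteins that steer the products had 7 of 10 members risen and 0 fallen (median 1.28). Of all genes 9.92% rose and 8.31% fell. TGG2 (AT5G25980) had 548 to 1090 CPM (median 966) with MeJA and 170, 147, 181, 240 and 287 CPM without (log2 change 2.17 ± 0.22, adjusted p = 5.6e-13). TGG1 rose by 0.82 ± 0.13. The specifier genes ESP and NSP1 rose by 2.19 ± 0.28 and 1.72 ± 0.15.

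The anthocyanin pathway rose at its late steps. Of 15 enzymes tested 7 rose and 0 fell, beside 9.92% and 8.31% of all genes. Their median was 0.65 (0.49 in A and 1.07 in B), and 6 of the risen genes make, decorate or carry anthocyanins. DFR (AT5G42800), the reductase that commits to anthocyanin, had 160 to 331 CPM (median 189) with MeJA and 22.8, 10.9, 25.6, 6.61 and 10.3 CPM without (log2 change 3.79 ± 0.57, adjusted p = 4.2e-07). LDOX (AT4G22880), the next enzyme, rose by 3.47 ± 0.58 and the glycosyltransferase UGT79B1 by 3.30 ± 0.62. The groups did not overlap for these 3 genes. CHS (AT5G13930), the first enzyme of all flavonoids, had 371 to 859 CPM (median 500) with MeJA and 194 to 484 CPM (median 441) without (0.65 ± 0.34, adjusted p = 0.195). FLS1 (AT5G08640), which diverts the pathway to flavonols, had 16.4 to 87.8 CPM (median 31.5) with MeJA and 32.6 to 138 CPM (median 119) without (-1.13 ± 0.43, adjusted p = 0.0551), and FLS1 was called with library totals alone (-1.21), with upper-quartile scaling (-1.17) and without MeJA A3 (-1.43), untreated B2 (-1.25) or untreated B3 (-1.28).

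The regulators were mixed, with 4 of 9 risen and 2 fallen (median 0.55), beside 9.92% and 8.31% of all genes. MYB75 (AT1G56650), an activator of anthocyanin genes, had 10.3 to 32.8 CPM (median 23.2) with MeJA and 8.74, 3.7, 7.5, 2.57 and 0.263 CPM without (log2 change 2.28 ± 0.57, adjusted p = 0.00236). Its relative MYB113 had 78 counts with MeJA and 1 without, a ratio of 63.3 (95% exact Poisson interval 11.4 to 2500, counting error only), and the bHLH partner TT8 rose by 2.47 ± 0.51. The WD40 partner TTG1 rose by 0.29 ± 0.09 (adjusted p = 0.0105), a call lost with library totals alone (0.21). MYB111 (AT5G49330), an activator of flavonol genes, had 0.546 to 1.65 CPM with MeJA and 6.08, 4.98, 4.63, 2.57 and 2.63 CPM without, and fell by 1.68 on the log2 scale (adjusted p = 0.00052). The bHLH EGL3 fell by 0.50 (adjusted p = 0.028), a call that was lost without MeJA A3, untreated A2 or untreated A3 (-0.47 to -0.40, adjusted p 0.0625 to 0.131). Of 5 trichome regulators tested, TTG2 rose by 1.31 ± 0.24 and TRY, an inhibitor of trichome fate, fell by 1.36 (adjusted p = 1.5e-05 and 0.0421). The TRY call was lost without MeJA A3, B1 or B2 or any untreated library but B2 (-1.40 to -1.02, adjusted p 0.0546 to 0.222).

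Other branches of immunity moved in part. Of 22 genes of salicylic acid immunity tested 5 rose and 0 fell, where 9.92% and 8.31% of all genes did. Their median was 0.47, with 0.28 in A and 0.96 in B. GRX480 (AT1G28480), a glutaredoxin that links salicylic acid to jasmonate genes, had 7.77 to 14.5 CPM (median 12.1) with MeJA and 0.95, 1.71, 0.221, 0.367 and 0.263 CPM without (log2 change 3.66 ± 0.37, and 4.42 without untreated A2, adjusted p = 9.5e-13). EDS5 (AT4G39030), the transporter of the salicylic acid precursor, rose by 1.57 ± 0.25, and NPR3, a salicylic acid receptor, by 0.92 ± 0.14. The transcription factor gene WRKY62 rose by 3.31 ± 0.66 at low counts, and its relative WRKY38 had 47 counts with MeJA and 2 without, a ratio of 19.0 (5.27 to 157). Both untreated counts lay in untreated B2, and without it the fitted log2 change of WRKY38, 3.79 with all libraries, was 5.74 against no count. ICS1 (AT1G74710), the main enzyme of salicylic acid synthesis, had 10.5 to 15.5 CPM with MeJA and 8.81 to 14.7 CPM without (0.13 ± 0.24, adjusted p = 0.782). The marker gene PR1 had 0.546 to 9.94 CPM (median 2.02) with MeJA and 0.734 to 20.9 CPM (median 1.58) without, and its log2 change of -1.46 ± 0.92 (adjusted p = 0.307) was -2.75 in A and 1.78 in B, and 0.46 without untreated A2.

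Of 17 genes of pattern-triggered immunity, the response to microbial surface molecules, 7 rose and 0 fell, where 9.92% and 8.31% of all genes did. Their median was 0.29, with 0.03 in A and 0.61 in B. MPK3 (AT3G45640), a kinase of this pathway, had 94.2 to 116 CPM (median 106) with MeJA and 65.7, 60.7, 60.9, 35.6 and 41.8 CPM without (log2 change 1.03 ± 0.16, adjusted p = 5.8e-07). The receptor kinase PEPR1 and its peptide precursor PROPEP1 rose by 0.94 ± 0.12 and 1.44 ± 0.34, WRKY40 by 1.46 ± 0.38 and the oxidase RBOHD by 0.81 ± 0.22. FRK1 rose by 2.08 ± 0.69 (adjusted p = 0.0248) but had -0.09 in A and 3.60 in B. Its call was lost without MeJA B2, MeJA B3, untreated A3, untreated B2 or untreated B3 (1.61 to 2.04, adjusted p 0.0501 to 0.111). Camalexin genes, which make the indole phytoalexin, had 5 of 7 members risen, with a median of 2.22 that was 1.05 in A and 3.52 in B. GSTF6 (AT1G02930) rose by 3.01 ± 0.45 and PAD3 (AT3G26830), the last enzyme, had 5.28 to 27.7 CPM (median 17) with MeJA and 3.23, 5.12, 2.65, 1.84 and 3.94 CPM without (2.22 ± 0.41, adjusted p = 2.5e-05).

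PHR1 and PHL1 control the phosphate starvation genes. Of 20 tested 2 rose and 1 fell (median 0.14), shares near the 9.92% and 8.31% of all genes, and the summed level was 309 to 487 CPM in the MeJA libraries and 315 to 454 CPM in the untreated libraries. IPS1 (AT3G09922), a noncoding RNA that sequesters a microRNA, had 4.16 to 23.4 CPM (median 6.83) with MeJA and 2.09, 1.71, 2.21, 5.51 and 1.58 CPM without. It rose by 1.99 ± 0.56 (adjusted p = 0.00781), and by 1.46 without MeJA B3 (adjusted p = 0.0555). PLDP2, a phospholipase D, rose by 1.05 ± 0.37 (adjusted p = 0.0379) and the ribonuclease RNS1 fell by 1.60 (adjusted p = 0.0403). The PLDP2 call was lost without MeJA A3, B1 or B2 or untreated A2 or B2 (0.89 to 1.00, adjusted p 0.0658 to 0.129), and the RNS1 call without any MeJA library but A3 or without untreated A1 or A2 (-1.57 to -1.27, adjusted p 0.0692 to 0.186), and without MeJA A3 it fell by 2.41. SPX1 (AT5G20150), a Pi sensor that binds PHR1, had 7.09 to 14.7 CPM with MeJA and 7.34 to 17.7 CPM without (-0.16 ± 0.38, adjusted p = 0.841).

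Of 8 phosphate transport genes tested 0 rose and 2 fell, and over so few genes this count is not read against the 8.31% of all genes. PHO1;H1 (AT1G68740), a relative of the xylem loader PHO1, had 4.84 to 9.33 CPM (median 7.97) with MeJA and 18.8, 12.5, 15.2, 20.9 and 21 CPM without, and fell by 1.17 on the log2 scale (adjusted p = 1.8e-05). PHT1;2 (AT5G43370) had 0 counts in the 6 MeJA libraries and 16 in the 5 untreated libraries, at least 6.77-fold lower. PHT1;1 (AT5G43350), the main Pi uptake transporter and a near copy of PHT1;2 with which reads could be shared, had 72.9 to 114 CPM with MeJA and 51 to 85.7 CPM without (log2 change 0.39 ± 0.18, adjusted p = 0.117). P1BS, the motif of PHR1 (GNATATNC), was found in 7 of the 20 phosphate starvation windows and in 5.44% of all windows.

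Photosynthesis genes moved by small amounts. Of 29 photosynthesis genes 0 rose and 7 fell, where 9.92% and 8.31% of all genes did. Their median was -0.15 (-0.10 in A and -0.19 in B). Their summed level was 69200 to 103000 CPM in the MeJA libraries and 78100 to 110000 CPM in the untreated libraries. Shoot markers were thus abundant in every library, and root hair markers, given further on, were present in every library too. The fallen members belong to carbon fixation. CA1 (AT3G01500), a carbonic anhydrase, had 814 to 1370 CPM (median 1170) with MeJA and 2030, 1600, 2160, 1940 and 1830 CPM without, and fell by 0.79 on the log2 scale (adjusted p = 0.00011). RBCS2B (AT5G38420) and RBCS3B (AT5G38410), small subunits of the carboxylase, fell by 0.76 and 0.64 with separate groups. Members for the light-harvesting antenna had log2 changes between -0.34 and 0.21, and none passed the test. Of 11 chlorophyll synthesis genes only CHLM was called, a share near the 8.31% of all genes that fell. CHLM fell by 0.38 (adjusted p = 0.0241). That call was lost without MeJA A1 or B2 or untreated B2 or B3 (-0.35 to -0.30, adjusted p 0.0556 to 0.124).

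Of 14 genes of senescence and chlorophyll breakdown 3 rose and 0 fell, where 9.92% and 8.31% of all genes did. Their median was 0.06, and -0.02 with library totals alone. ORE1 (AT5G39610), a NAC factor of leaf ageing, had 6.92 to 17.2 CPM (median 13.1) with MeJA and 6.27, 5.12, 5.96, 2.2 and 3.42 CPM without (log2 change 1.54 ± 0.29, adjusted p = 3.2e-05). PPH (AT5G13800), which removes phytol from chlorophyll, rose by 0.73 ± 0.14. The degreening gene SGR1 had -0.16 ± 0.17 (adjusted p = 0.579). Of 25 cell division genes 0 rose and 1 fell, again beside 9.92% and 8.31% of all genes, with all log2 changes between -0.52 and 0.13.

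Of 16 root hair genes 5 rose and 0 fell, where 9.92% and 8.31% of all genes did (median 0.54, with 0.30 in A and 0.62 in B). Their summed level was 247 to 398 CPM with MeJA and 184 to 297 CPM without. PRP1 (AT1G54970), a proline-rich wall protein of root hairs, had 6.45 to 11.6 CPM (median 7.98) with MeJA and 1.71, 3.41, 2.43, 0.734 and 2.1 CPM without (log2 change 2.02 ± 0.33, adjusted p = 2e-06). The peroxidase RHS18 rose by 1.63 ± 0.41 and the expansin EXPA7 by 0.68 ± 0.20. Of 9 root endodermis genes none was called (median -0.32), and their summed level was 140 to 161 CPM with MeJA and 141 to 180 CPM without.

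Of 20 iron deficiency genes 1 rose and 2 fell (median -0.20, with 0.13 in A and -0.66 in B). These few calls lie near the 9.92% and 8.31% of all genes and are not read as a result about the list. FIT (AT2G28160), the bHLH master regulator of iron uptake, fell by 0.56 (adjusted p = 0.00303) with overlapping groups. CYP82C4 (AT4G31940), a P450 of coumarin secretion under iron shortage, had 5.41 to 39.8 CPM (median 10.2) with MeJA and 27, 11.9, 27.1, 46.2 and 121 CPM without, and fell by 1.72 (adjusted p = 0.00389). The citrate transporter FRD3 rose by 0.74 ± 0.26 (adjusted p = 0.0402), a call lost without MeJA A1 or A3 or without any untreated library but A2 (0.56 to 0.77, adjusted p 0.0514 to 0.163). Of 2 ferritin genes tested, FER3 fell by 0.48 (adjusted p = 0.0187), and by 0.40 without MeJA A1 or untreated A2 (adjusted p 0.0730 to 0.0861).

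Of 16 sulfur deficiency and assimilation genes tested 3 rose and 0 fell, where 9.92% and 8.31% of all genes did. Their median was -0.36, with -0.35 in A and 0.37 in B. The sulfate-activating enzymes APS1 (AT3G22890) and APS3 (AT4G14680) rose by 1.03 ± 0.13 and 1.13 ± 0.20, and the vascular sulfate transporter SULTR2;1 (AT5G10180) by 1.09 ± 0.13 (adjusted p at most 1.3e-05). APS1 had 829 to 1130 CPM (median 1020) with MeJA and 603, 557, 613, 343 and 371 CPM without. LSU2 (AT5G24660), a marker of sulfur deficiency, had 5.95 to 15.4 CPM (median 11.2) with MeJA and 9.73 to 40.2 CPM (median 28) without (-1.21 ± 0.47, adjusted p = 0.0668), and it was called with library totals alone (-1.29) and without untreated B3 (-1.38).

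**Figure D3:**
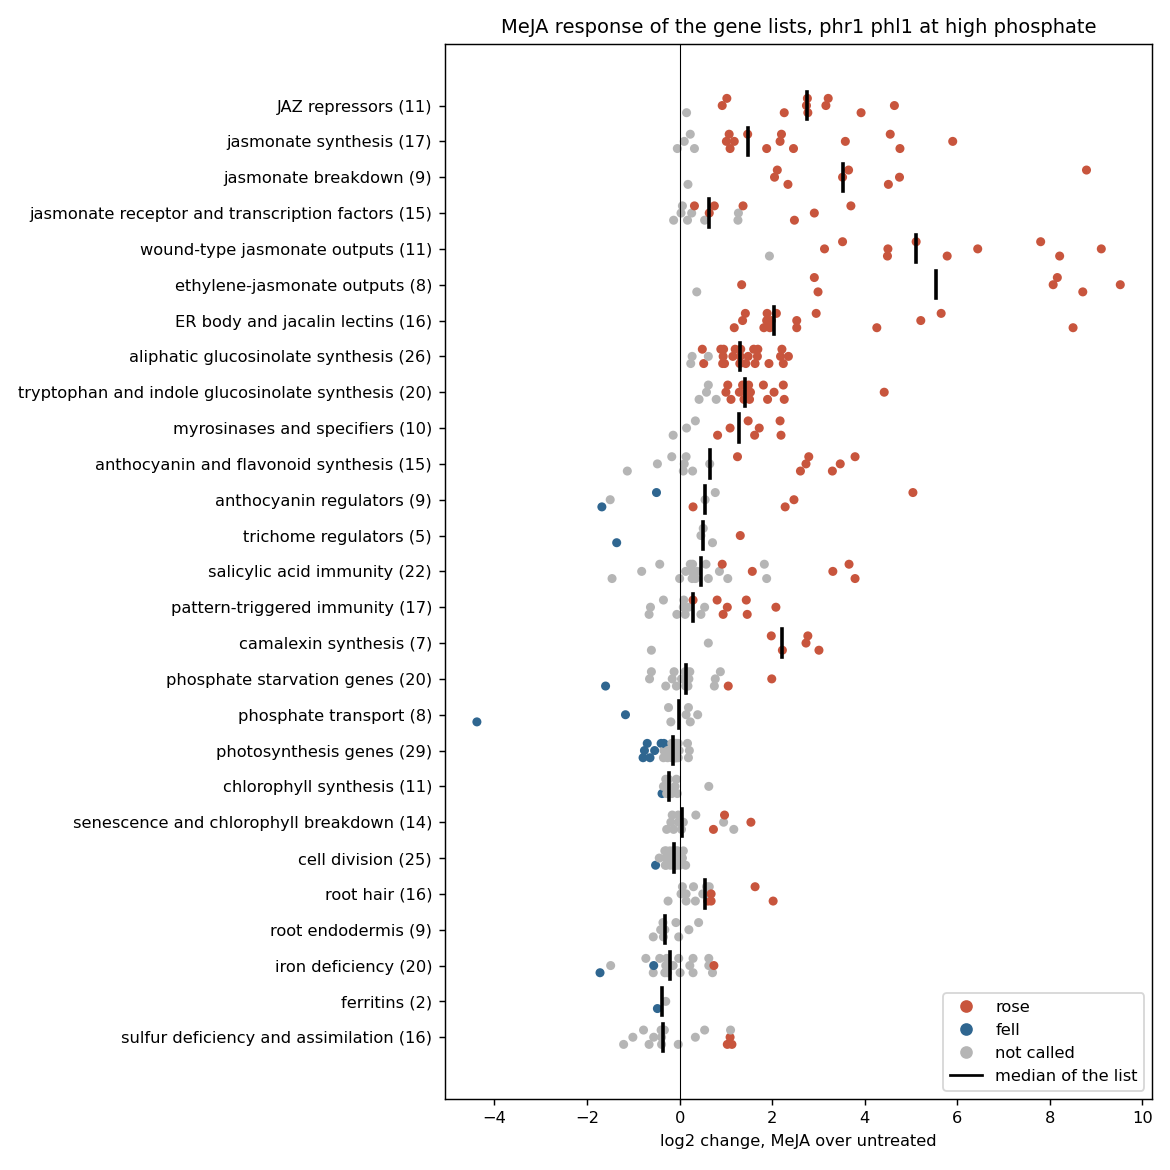
Log2 change, MeJA over untreated (x axis), of every tested member of the 27 gene lists (rows, with the number tested), coloured red where it rose, blue where it fell and grey where it was not called, with a line at the median of each list and genes without counts in a group at their fitted value. The jasmonate, ER body and glucosinolate lists lie to the right of 0 and the photosynthesis, cell division and endodermis lists close to it.

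The 12 largest rises, among genes that averaged 1 or more in log2 CPM and had the same sign in A and B, reached beyond these lists. scpl30 (AT4G15100), a serine carboxypeptidase-like gene, had 221 to 407 CPM (median 298) in the MeJA libraries and a single count in the untreated ones, a ratio of 6990 (95% exact Poisson interval 1250 to 276000, counting error only). CYP710A4 (AT2G28860), of the sterol desaturase P450 family, had 55.3 to 127 CPM (median 80.9) with MeJA and no count without, at least 661-fold higher. MRN1 (AT5G42600), which makes the triterpene marneral, had 223 to 487 CPM (median 309) with MeJA and 0.19, 0, 0.221, 0 and 0.526 CPM without, a log2 change of 10.60 ± 0.43 (adjusted p = 1.6e-29), and of 11.20 without untreated B3.

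CYP71A20 (AT4G13310), another P450, rose by 9.77 ± 0.43, and by 11.12 without untreated B3. No untreated count was found for AT1G32970, LCR85 (AT4G22210, a cysteine-rich peptide) or GolS7 (AT1G60450, a galactinol synthase), which were at least 202-fold, 181-fold and 144-fold higher. Their levels with MeJA were 13.1 to 32.8 CPM, 11.7 to 42.7 CPM and 7.09 to 38 CPM. CSLA01 (AT4G16590), a cellulose synthase-like gene, had 46.8, 49.5 and 124 CPM in the MeJA libraries of experiment A, 1.32, 2.39 and 0.537 CPM in those of experiment B, and a single untreated count. The ratio was 876 (157 to 34600), and within experiment B alone the call was lost. PDF1.2c (AT5G44430) rose by 9.52 ± 0.48 (10.48 without untreated A1), and PDF1.2b (AT2G26020), with 3 untreated counts, had a ratio of 614 (210 to 2980). THI2.1 and JRG21 complete the 12.

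The 12 largest falls were smaller. AT5G54700 had 0.364 to 0.827 CPM (median 0.602) with MeJA and 9.12, 11.1, 6.84, 5.14 and 4.21 CPM without, and fell by 3.72 on the log2 scale (adjusted p = 3.6e-11). GASA5 (AT3G02885), a peptide of the gibberellin-regulated family, had 1.27 to 4.57 CPM (median 3.02) with MeJA and 26, 23.2, 22.7, 49.2 and 23.9 CPM without, and fell by 3.24 (adjusted p = 3.3e-12). The defensin PDF2.1 (AT2G02120) had 0.165 to 3.82 CPM (median 0.431) with MeJA and 5.89, 6.68, 9.49, 11 and 10.3 CPM without, and fell by 3.0 (by 3.83 without MeJA B2); members of the PDF1 family rose. The groups of these 3 genes did not overlap.

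BGLU7, a β-glucosidase outside the ER body list, fell by 2.87, and CYP707A2 (AT2G29090), which breaks down abscisic acid, by 2.77. The inositol polyphosphate phosphatase gene 5PTASE11 (AT1G47510) fell by 2.76, and by 1.27 in experiment B alone, where the call was lost. The microtubule gene SP1L2 fell by 2.69, the lipase DSEL by 2.67 and the MADS-box gene AGL14 by 2.26 (adjusted p at most 4.9e-06 for these 6 genes). AGL14 fell by 1.32 in experiment A alone and lost its call there. The remaining 3 are known here by their loci: AT2G19970 fell by 3.13, AT4G08570 by 2.70 and AT2G27420 by 2.64. In experiment A AT2G27420 had 3.55 to 14 CPM with MeJA and 50.3 to 58.5 CPM without, and in experiment B it had 1.82 to 2.96 CPM with MeJA and 5.26 to 6.97 CPM without, and its call was lost within B (-1.26). Without MeJA A2 it fell by 3.23.

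The response was set beside those of Col-0 at high Pi and of phr1 phl1 at low Pi, each with its own untreated libraries (12 libraries each). In Col-0 at high Pi 1441 genes rose (7.71%) and 1032 fell (5.52%), and in phr1 phl1 at low Pi 1864 rose (9.97%) and 1315 fell (7.03%). Genes that rose both here and in Col-0 numbered 1179, 63.6% of those here and 81.8% of those in Col-0, and 649 fell in both (41.8% and 62.9%). Of the genes risen here 1363 also rose at low Pi (73.5% here and 73.1% there), and 727 fell in both (46.8% and 55.3%). No gene was called in opposite directions against Col-0, and 2 were against low Pi. Across the 18693 genes Pearson's r of the log2 changes was 0.865 with Col-0 and 0.886 with low Pi, as a description over genes, which are not independent.

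No gene passed the test of a difference in response in either comparison (edgeR, 0% called). That count depends on the setting. Against low Pi, experiment A alone called 211 genes higher here and 48 lower, an experiment effect in every group 29 and 4, and the doubted library kept 4 and 28. Against Col-0, experiment A alone called 9 genes lower, experiment B alone 6 higher, and the doubted library kept 1 higher and 30 lower. At an unadjusted p under 0.05 the difference between phr1 phl1 and Col-0 had 688 genes (DESeq2 691) and that between high and low Pi 775 (DESeq2 773), of 18693, and DESeq2 called 1 and 0 at its adjusted p. A missed threshold does not show that the responses are alike. Over the 3408 genes risen or fallen here, the median standard error of a difference was 0.27 against Col-0 and 0.26 against low Pi (log2). In the tests over both experiments the members had no call, and their values are given side by side as a description. The log2 changes of the JAZ genes were lower here than in Col-0 in 11 of 11 cases, where 9162 of all 18693 genes were lower. JAZ5 changed by 3.92 here, 5.60 in Col-0 and 5.54 at low Pi, and JAZ10 by 4.64, 5.20 and 5.14. JAZ12 stood at 1.02, 1.09 and 0.85.

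Among the outputs, VSP2 changed by 8.21 here, 8.82 in Col-0 and 8.78 at low Pi, and PDF1.2 by 8.16, 10.01 and 7.91. Lists of 5 or more tested genes are given where at least 75% of their members lay on one side. Besides the JAZ genes, changes were lower here than in Col-0 for 10 of 11 wound-type and 6 of 8 ethylene-jasmonate outputs, 25 of 26 aliphatic and 16 of 20 indole glucosinolate genes, 12 of 15 anthocyanin enzymes, 12 of 16 ER body genes and 4 of 5 trichome regulators. They were higher here than in Col-0, where 9531 of all genes were higher, for 19 of 22 genes of salicylic acid immunity, 13 of 17 of pattern-triggered immunity, 13 of 16 root hair and 7 of 9 endodermis genes, 15 of 20 phosphate starvation and 6 of 8 phosphate transport genes. Members of a list share their libraries and can move together, so they are not independent cases. On the lower side, edgeR's unadjusted p was under 0.05 for 4 JAZ, 2 wound-type, 1 ethylene-jasmonate, 1 indole and 2 ER body genes. No aliphatic gene, anthocyanin enzyme or trichome regulator had such a p. On the higher side such a p was found for 3 salicylic acid, 1 pattern-triggered immunity and 1 phosphate starvation gene and for none in the other lists. The medians of the aliphatic list were 1.31 here, 1.46 in Col-0 and 1.59 at low Pi. MeJA B3 was the outlying lowest MeJA library for BCAT4, MAM1, MAM3 and CYP79F2 of this list. Against low Pi, where 9762 of all genes were lower and 8931 higher, changes were lower here for 26 of 26 aliphatic glucosinolate genes, 15 of 15 anthocyanin enzymes (DFR 3.79 here and 5.19 there), 8 of 9 anthocyanin regulators, 18 of 20 iron deficiency genes, 13 of 17 jasmonate synthesis genes and 15 of 16 sulfur genes (medians -0.36 and 0.79). They were higher here than at low Pi for 7 of 9 jasmonate breakdown genes, 12 of 16 ER body genes and 15 of 20 phosphate starvation genes. On the lower side edgeR's unadjusted p was under 0.05 for 2 aliphatic, 2 synthesis, 1 iron, 5 sulfur and 1 anthocyanin regulator gene. On the higher side 2 phosphate starvation genes had such a p, and no anthocyanin enzyme, breakdown or ER body gene did. As single values, IGMT1 changed by 4.42 here, 3.93 in Col-0 and 2.70 at low Pi, and PAD3 by 2.22, 0.74 and 1.92.

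**Figure D4:**
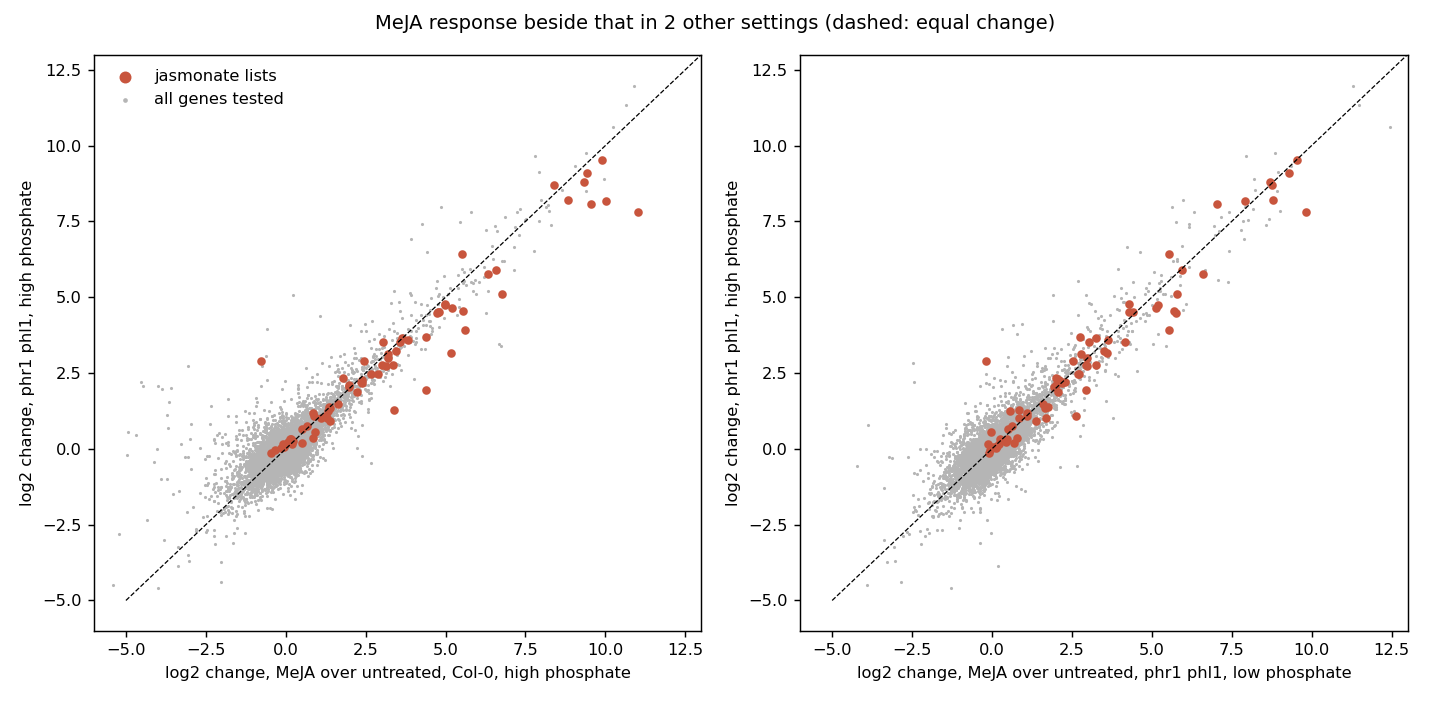
Log2 change, MeJA over untreated, of each of 18693 genes in phr1 phl1 at high Pi (y axis) against that in Col-0 at high Pi (left, x axis) and in phr1 phl1 at low Pi (right, x axis), with the jasmonate lists in red and a dashed line of equal change. Points follow the line in both panels (r = 0.865 and 0.886), and JAZ5 lies below it at 3.92 against 5.60 and 5.54.

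The experiments were also fitted apart. Experiment A by itself gave 1699 risen and 1139 fallen genes, and experiment B, with its 2 untreated libraries, 1414 and 758. Of these, 920 rose in both (54.1% of those in A and 65.1% of those in B) and 279 fell in both (24.5% and 36.8%), while 19 rose in A and fell in B and 5 the other way round. A test of the response in B minus that in A, added after the data were seen, called 178 genes (0.952%). TPS11 (AT2G18700), a trehalose phosphate synthase-like gene, changed by -0.44 in B and 1.81 in A. The asparagine synthetase ASN1 (AT3G47340), known as a gene of low sugar, changed by 0.69 in B and 4.80 in A, and DIN10 and BT2, of the same kind, by -1.56 and -1.86 in B and 1.58 and 1.54 in A. The clock gene PRR9 changed by 1.76 in B and -0.92 in A, and ERF2, an ethylene response factor, by 5.44 and 1.51. These 6 genes were chosen after their values were seen. Of the list members named above, CYP79B3 (1.37 in B and 2.37 in A) and PHT1;1 (0.95 and -0.10) were among the 178. Some calls named above were lost within a single experiment. In A alone this was so for AGL14, CHLM, CYP82C4, EGL3, IPS1, JAZ4, JMT, PHT1;2, PLDP2, RNS1, TRY, TTG1 and WRKY40 and, with the sign turned, for FRK1 and PDF1.4, and in B alone for 5PTASE11, AT2G27420, CSLA01, EGL3, EXPA7, FER3, FRD3, IPS1, JAM3, MYB111, OSM34, PLDP2, PROPEP1, RNS1, TGG1, TTG1, WRKY38 and WRKY62. Of the 151 called genes named here, 13 moved by over 1.5-fold in A alone and 43 in B alone, 33 of those farther from 0.

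**Figure D5:**
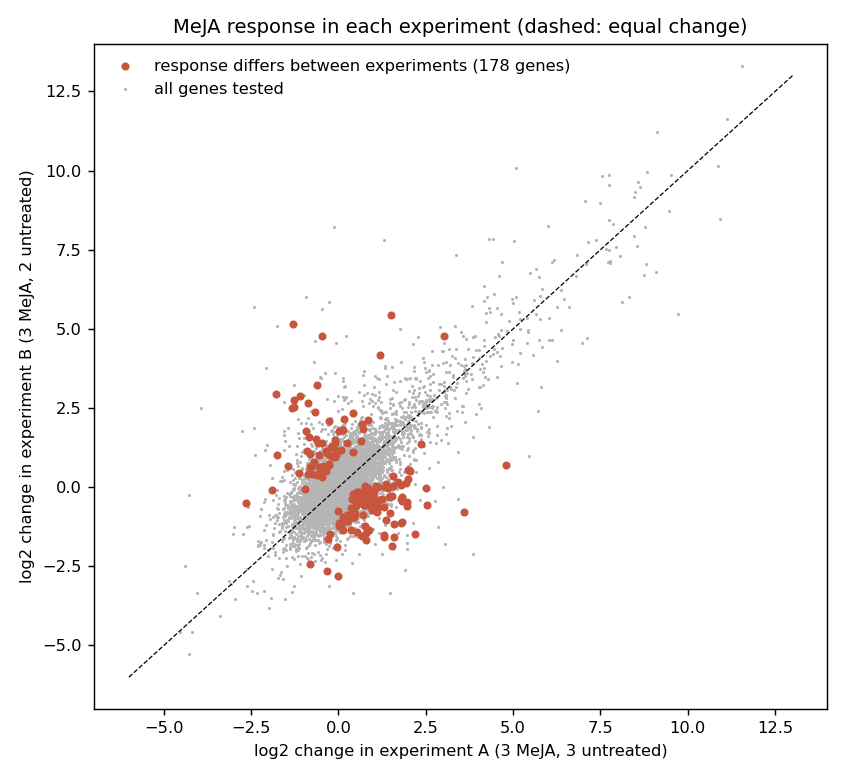
Log2 change, MeJA over untreated, in experiment B (y axis, 3 MeJA and 2 untreated libraries) against that in experiment A (x axis, 3 and 3 libraries), with a dashed line of equal change. The 178 genes in red differ between the experiments.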

How the data were processed

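The deposited table holds the authors' raw read counts per gene, not normalized, for 72 libraries. The submitters' processing notes name the TAIR10 build and the tools HTSeq 0.6.1p1, TopHat2 2.1.1, cutadapt 1.3 and CASAVA 1.8. Per the labels' protocols the libraries were not stranded, so reads of a gene and its antisense partner cannot be told apart. No label says that libraries of a group came from separate plants, so p-values measure the spread between these libraries.

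Counts were tested with edgeR 4.0.16 (R 4.3.3): filterByExpr with a minimum count of 10, TMM scaling, the robust quasi-likelihood test and Benjamini-Hochberg adjustment over all 18693 genes, with a threshold of 0.05. The model held 71 libraries in 12 groups, which share 1 estimate of the spread, with 1 experiment term common to all groups. Values are CPM on the TMM scale, and log2 changes are MeJA over untreated ± SE. The common biological coefficient of variation was 0.173. Intervals and floors cover counting error only. Library pairs of 1 group differed by more than sampling noise (25 pairs, chi-square per degree of freedom 2.24 or more). The same test on simulated counts of part of the groups recovered 92 of 100 genes changed 2-fold and 99 of 100 changed 4-fold, with 13 false calls. The simulation gave every gene the same spread, held no experiment effect, and had few changed genes, evenly up and down. These rates thus do not carry over to the real counts. Windows, gene names and neighbours come from the TAIR10.1 assembly of RefSeq, which 26719 of 27206 loci matched.

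The members and the 27 gene lists (388 of 420 loci tested) were chosen with earlier results of these data known. Named genes are the 12 largest rises and falls among genes that averaged 1 or more in log2 CPM and had the same sign in both experiments, up to 6 called members of a list, and any member of the 6 jasmonate lists. NAI1, NAI2, PYK10, MYB28, MYB29, CYP79F2, CYP83A1, MYB34, MYB51, TGG1, CHS, FLS1, ICS1, PR1, SPX1, PHT1;1, SGR1 and LSU2 were named outside that rule for their known roles, after their values were seen. The alternatives were DESeq2 1.42.0, other scalings, filters and experiment terms, each experiment alone, a replicate block and each library left out.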

Additional observations from a re-analysis of the deposited data

Results flagged for a closer look

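Single libraries far from the rest of their group were sought in 352 groups of 5 or 6 values, and 35 passed Dixon's 95% critical value. For normally distributed values chance flags about 1 in 20 groups, or 17.6 here. A library with the only counts of its group is always flagged, as for scpl30, CSLA01, MYB113 and WRKY38. The 35 are thus not read against 17.6. Among the MeJA libraries B3 had 10 of the 35. It stood lowest for BCAT4 (279 CPM), MAM1 (228 CPM), MAM3 (210 CPM), CYP79F2 (102 CPM), TGG2 (548 CPM) and AIM1 (84.4 CPM), and highest for PHL1 (102 CPM), PDF1.4 (25.8 CPM), IPS1 (23.4 CPM) and PR1 (9.94 CPM).

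The other MeJA libraries had fewer. A1 was highest for THI2.1 (34.2 CPM) and IGMT5 (160 CPM). A2 was highest for CYP94B1 (23.3 CPM) and NSP1 (836 CPM) and lowest for MYB111 (0.546 CPM). A3 was highest for VSP1 (393 CPM), AGL14 (2.93 CPM) and RNS1 (2.93 CPM) and lowest for EGL3 (5.62 CPM). B2 was highest for PDF2.1 (3.82 CPM), RHS18 (12.9 CPM) and CYP82C4 (39.8 CPM) and lowest for ANAC055 (6.44 CPM).

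Among the untreated libraries A1 stood out for IGMT1 (6.65 CPM) and scpl30 (0.19 CPM), A2 for NATA1 (3.41 CPM), PR1 (20.9 CPM) and CSLA01 (0.142 CPM), and A3 for MYB113 (0.221 CPM). B2 was highest for GASA5 (49.2 CPM), VSP1 (8.44 CPM), IPS1 (5.51 CPM) and WRKY38 (0.734 CPM). B3 was highest for CYP71A20 (0.789 CPM) and lowest for JAL35 (67.8 CPM). Values under 1 CPM here are a few counts.

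The response differed between experiments B and A in 178 genes by a test of the difference itself. On the log2 scale, B minus A, it was -4.11 for ASN1, -3.39 for BT2, -3.13 for DIN10, -2.24 for TPS11, 3.95 for ERF2 and 2.69 for PRR9. Of the list members named, CYP79B3 had -0.99 and PHT1;1 had 1.06. The cause was not tested.

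The library that was left out, labelled untreated phr1 phl1 at high Pi, carried jasmonate output RNA above every other library without MeJA. It had 818 CPM of PDF1.2, 372 CPM of scpl30, 211 CPM of VSP2, 194 CPM of MRN1 and 97.0 CPM of JAZ10. The highest values in the other 47 such libraries were 29.2, 3.69, 8.51, 1.70 and 5.51 CPM.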

How the results depend on the processing

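The number of genes that rose with MeJA stayed within 1.5 times of 1854 under every setting run, from 1414 (experiment B alone) to 2244 (an experiment effect in every group). The number that fell, 1554, was 758 in experiment B alone, and 1037 to 2293 under the other settings. Leaving out each library in turn gave 1665 to 1835 risen and 1143 to 1427 fallen genes. DESeq2 called 1934 and 1598. With the doubted library kept, list medians were smaller: 1.88 for JAZ genes, 3.17 for wound-type outputs, 2.93 for ethylene-jasmonate outputs, 2.29 for breakdown and 1.57 for ER bodies.

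Deviations of same-numbered libraries correlated at -0.0153, -0.0687, 0.0545, -0.185 and -0.233. They were taken from means of 2 or 3 libraries, which ties them to each other. These few values cannot decide whether the replicate numbers pair the libraries. With a replicate block 1796 genes rose and 1446 fell, and 0 differed in either test of a difference in response.

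Those tests called 0 genes with edgeR. More genes higher than in Col-0 were called with DESeq2 (1), with the doubted library kept (1) and in experiment B alone (6), and lower ones with the doubted library kept (30) and in experiment A alone (9). Against low Pi, 4 higher and 28 lower genes were called with the doubted library kept, 211 and 48 in experiment A alone, and 29 and 4 with an experiment effect in every group. Without single libraries 0 to 1 were lower. The cause was not tested.

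Of 4101 values of the 179 named genes under alternatives, 3925 kept direction and call, 116 lost a call, 39 gained one and 21 changed sign, 2 of them in genes with a call. In experiment A alone the sign turned for JAR1 (-0.05), CYP94B3 (-0.01, and -0.03 to 0.35 when single libraries were left out, negative without untreated B3), PDF1.4 (-0.38), ICS1 (-0.06), FRK1 (-0.09) and PHT1;1 (-0.10). In experiment B alone it turned for JAZ11 (-0.07), MYC4 (0.36), HCHIB (-0.74), SPX1 (0.22), RD26 (-0.11), SGR1 (0.15) and PR1. The PR1 log2 change was 1.78 there, and -2.15 to 0.46 when single libraries were left out, positive without untreated A2. PHL1 had 0.04 with the doubted library kept, COI1 -0.02 with library totals alone, and TPL -0.05 with library totals, -0.02 with upper-quartile scaling, and -0.04 to 0.10 when single libraries were left out, negative without MeJA A1 or untreated B2. With an experiment effect in every group 13 called genes moved by over 1.5-fold: FAMT (7.61), AT2G38240 (6.11), NATA1 (8.65), LOX3 (1.75), PDF1.2 (8.79), PDF1.2c (10.15), PDF1.3 (8.67), MYB113 (5.66) and JAZ7 (3.77) lay farther from 0, and CSLA01 (7.61), 5PTASE11 (-2.15), AT2G27420 (-1.96) and PDF1.4 (1.60) nearer to it. Of 621 list medians 44 moved by more than the list's limit, in 20 of the 27 lists. The limit is the SD over the MeJA libraries of the median change of the list's members.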

Other observations

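Genes outside the lists were looked at after their values had been seen, by the family words in their RefSeq descriptions. Of 29 jacalin and mannose-binding lectin genes tested, 19 rose and 0 fell with MeJA (65.5% against 9.92% of all genes, median log2 change 1.17), and 6 of the 29 are also in the ER body list. Of 24 defensin-like genes 14 rose and 2 fell (58.3% and 8.33%, median 1.56). Of 161 cytochrome P450 genes 59 rose and 19 fell (36.6% and 11.8%, median 0.16). Genes of cell wall proteins lay the other way. Of 39 arabinogalactan protein genes 1 rose and 10 fell (25.6% fell, against 8.31% of all genes, median -0.35), and of 46 expansin and xyloglucan endotransglucosylase genes 4 rose and 13 fell (28.3% fell). Of 64 lipid transfer protein genes 4 rose and 13 fell (6.25% and 20.3%). Of 308 ribosomal protein genes 2 rose and 18 fell (median -0.05). Their shares, 0.649% and 5.84%, both lay under the 9.92% and 8.31% of all genes.

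Several of the large rises sat next to each other on the chromosome. CYP705A12 (AT5G42580) and CYP71A16 (AT5G42590), P450 genes of the marneral cluster, are adjacent and lie 3 genes from MRN1. CYP705A12 had 107 to 203 CPM in the MeJA libraries and 0 to 1.1 CPM in the untreated libraries, and CYP71A16 rose by 4.23 ± 0.25 on the log2 scale (edgeR adjusted p = 4.6e-23). PEN1 (AT4G15340), a triterpene synthase, and its neighbour CYP705A1 rose by 5.74 ± 0.22 and 5.92 ± 0.23. The terpene synthase gene TPS13 (AT4G13300) adjoins CYP71A20, and had 31.5 to 48.2 CPM with MeJA and 0 to 0.526 CPM without. The myrosinase-binding protein genes MBP1 (AT1G52040) and MBP2 are adjacent and rose by 8.52 ± 0.51 and 6.70 ± 0.34. As near copies they may share reads. These pairs were picked for their size, and neighbours were not tested over the genome.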
